A study of Mus musculus with 9 samples.

Results

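The unfolded protein response and the quality control of the endoplasmic reticulum (ER) were followed through 39 genes in follicular B cells of the spleen (resting, recirculating cells that lie in B cell follicles) from mice of 3 heavy chain genotypes. A gene was read from a probe set that carries its symbol and no other, and the brightest such probe set stood for a gene with several. On this rule 38 of the 39 genes had a value. Pdia4, a disulfide isomerase, shares its probe set with a microRNA gene and has none. Testing required a log2 signal over the array's own median on 3 or more of the 9 arrays. That left 37 of the 39 genes, among 12170 in all. Trib3, a pseudokinase induced by ATF4, lay above the median on 2 arrays and was not tested. The tested genes were 15 of 16 listed chaperones and folding enzymes, 10 of 10 genes of ER-associated degradation, 6 of 6 sensors and transcription factors, 2 of 3 genes of translation control and 4 of 4 translocation genes.

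The question behind the series, by its title, is whether B cell fate depends on receptor dosage set by the heavy chain isotype. Follicular B cells had been sorted from the spleens of polyclonal mice aged 6 to 12 weeks that were homozygous for an ε allele of Igh (ε/ε, for the heavy chain of IgE), homozygous for a γ1 allele (γ1/γ1, for that of IgG1), or wild-type at Igh. The tag VJk5 stands in the genotype of all 9 samples without an explanation, and how the ε and γ1 alleles were built is not described in the labels. Each genotype had 3 single-colour arrays. The replicates are called independent, but whether each is its own animal is not stated, and the p-values reflect sample-to-sample spread, which may be technical, and the small number of arrays limits the precision. In bulk RNA of this kind, fewer cells of a type and less RNA per cell cannot be told apart.

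Proteins that enter the secretory pathway fold in the ER with the help of chaperones, and those that fail are returned to the cytosol and degraded. When unfolded protein builds up, IRE1 (Ern1) splices the mRNA of Xbp1, PERK (Eif2ak3) phosphorylates eIF2 and so lowers translation while favouring ATF4, and ATF6 is cleaved to a transcription factor. These arms raise chaperones, degradation factors and Ppp1r15a, whose product returns eIF2 to its active state. B cells rely on the response when they become antibody-secreting plasma cells, and XBP1 is needed for that step.

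Promoters are shown first, since the ATF6 and XBP1 arms act through short elements close to the start of their target genes. RefSeq promoter sequence of the GRCm38.p6 build, from 250 bases before to 50 bases after the annotated start, was at hand for 33 of the 39 genes, and none was found for Hyou1, Derl1, Sec61a1, Atf6, Manf or Ppp1r15b. The ER stress element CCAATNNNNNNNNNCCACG, searched on both strands, was present in the promoters of 9 of the 33 genes (27.3%), against 0.137% of 27025 genes with a promoter. The sites are printed in the CCAAT to CCACG direction with these ends in capitals, so that the spacer between them can be compared.

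Hspa5, chr2:34772025-34772043: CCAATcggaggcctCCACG
Hsp90b1, chr10:86705638-86705656: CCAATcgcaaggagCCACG
Hsp90b1, chr10:86705533-86705551: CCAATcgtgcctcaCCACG
Calr, chr8:84847075-84847093: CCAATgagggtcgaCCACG
Canx, chr11:50325800-50325818: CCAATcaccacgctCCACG
Creld2, chr15:88819520-88819538: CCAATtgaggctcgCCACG
Dnajc3, chr14:118937827-118937845: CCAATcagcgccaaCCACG
Pdia6, chr12:17266491-17266509: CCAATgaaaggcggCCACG
Syvn1, chr19:6046532-6046550: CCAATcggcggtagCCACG
Derl3, chr10:75893242-75893260: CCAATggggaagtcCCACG

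The printed strand was the minus strand for Canx, Creld2, Derl3 and the first Hsp90b1 site and the plus strand for the others. Hsp90b1, which codes for the chaperone GRP94, held 2 copies and the other genes 1 each. The spacers differed from site to site. The shorter ER stress element II, ATTGGNCCACG, was present in 2 of the 33 promoters (6.06%, against 0.0444% of all genes), both on the plus strand.

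Dnajb11, chr16:22857852-22857862: ATTGGcCCACG
Herpud1, chr8:94386377-94386387: ATTGGgCCACG

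The Dnajb11 site lay 8 to 18 bases after the annotated start, and the Herpud1 site 52 to 42 bases before it. Herpud1 also held the 1 match to an ATF4 core, TTGCATCA, among these promoters (3.03%, against 1.03% of all genes). The unfolded protein response element TGACGTGG was in 0 of the 33 promoters and in 0.714% of all genes. In all, 11 of the 33 promoters (33.3%) held at least 1 of the 4 motifs, against 1.90% of all genes, and no site overlapped a site of another motif. A match is a description of the letters and was not tested as a binding site.

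**Figure D1:**
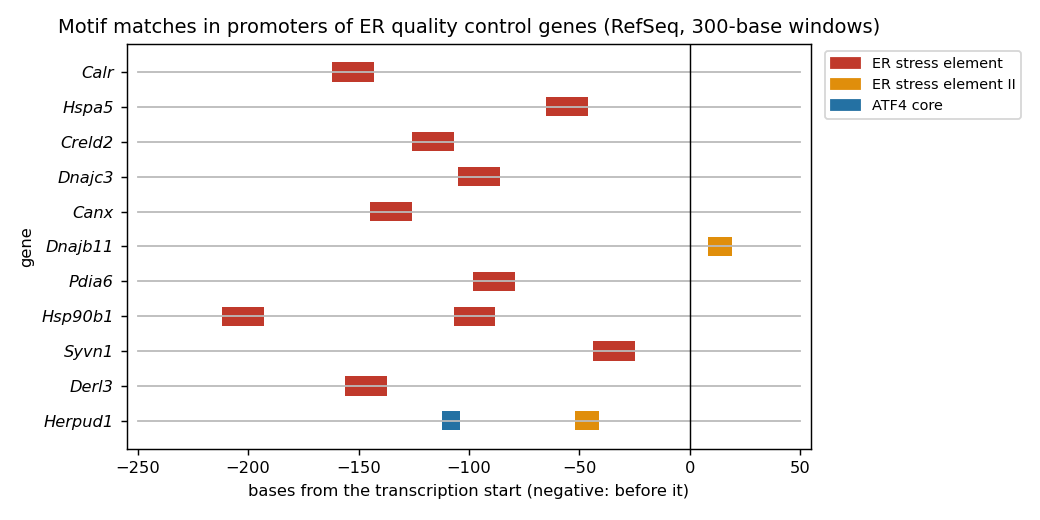
Motif matches in the promoters of 11 genes, as bars along the distance in bases from the annotated start (x axis), 1 line per gene, coloured by motif. All sites of the ER stress element lie before the start, the nearest in Syvn1 at 44 to 26 bases and the farthest in Hsp90b1 at 212 to 194 bases.

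The 3 genes that rose in ε/ε cells against wild-type differed in this respect. The 250 bases before the start of each follow, from the strand of the gene, with motif matches in capitals. Syvn1 is on the plus strand, and Dnajb9 and Ppp1r15a are on the minus strand.

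Syvn1, chr19:6046326-6046575: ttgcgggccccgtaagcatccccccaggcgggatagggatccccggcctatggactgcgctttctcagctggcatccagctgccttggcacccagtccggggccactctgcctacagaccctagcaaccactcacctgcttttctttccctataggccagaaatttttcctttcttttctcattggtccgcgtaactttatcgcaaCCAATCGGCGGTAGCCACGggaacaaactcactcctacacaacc
Dnajb9, chr12:44210069-44210318: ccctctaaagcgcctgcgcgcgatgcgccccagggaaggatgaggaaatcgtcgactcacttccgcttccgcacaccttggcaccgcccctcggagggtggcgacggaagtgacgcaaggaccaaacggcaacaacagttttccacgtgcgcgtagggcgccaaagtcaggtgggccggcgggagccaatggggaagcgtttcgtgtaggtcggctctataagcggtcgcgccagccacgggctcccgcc
Ppp1r15a, chr7:45526269-45526518: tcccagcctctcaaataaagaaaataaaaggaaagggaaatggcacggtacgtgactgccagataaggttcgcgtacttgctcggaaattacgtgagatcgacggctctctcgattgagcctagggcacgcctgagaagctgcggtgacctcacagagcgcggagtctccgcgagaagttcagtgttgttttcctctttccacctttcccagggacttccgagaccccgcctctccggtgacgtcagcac

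Syvn1 held 1 ER stress element, and none of the 4 motifs was found in the window of Dnajb9 or Ppp1r15a, which says only that these letters are not there. The 9 genes with the ER stress element had a median log2 difference of 0.066 for ε/ε minus wild-type, with a range from -0.20 for Hsp90b1 to 1.00 for Syvn1. The 22 tested genes with a promoter and no such element had a median of 0.14. Values without the element ran from -0.76 for Spcs2 to 1.96 for Ppp1r15a, so the ranges overlapped throughout. Against γ1/γ1, ε/ε was higher in 9 of the 9 genes with the element and in 17 of the 22 without it. The same held for 31 of the 37 tested genes (83.8%) and for 50% of all genes tested. Of the genes with the element, Hspa5, Hsp90b1, Creld2, Canx and Pdia6 had their lowest values on γ1/γ1 array 1.

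**Figure D2:**
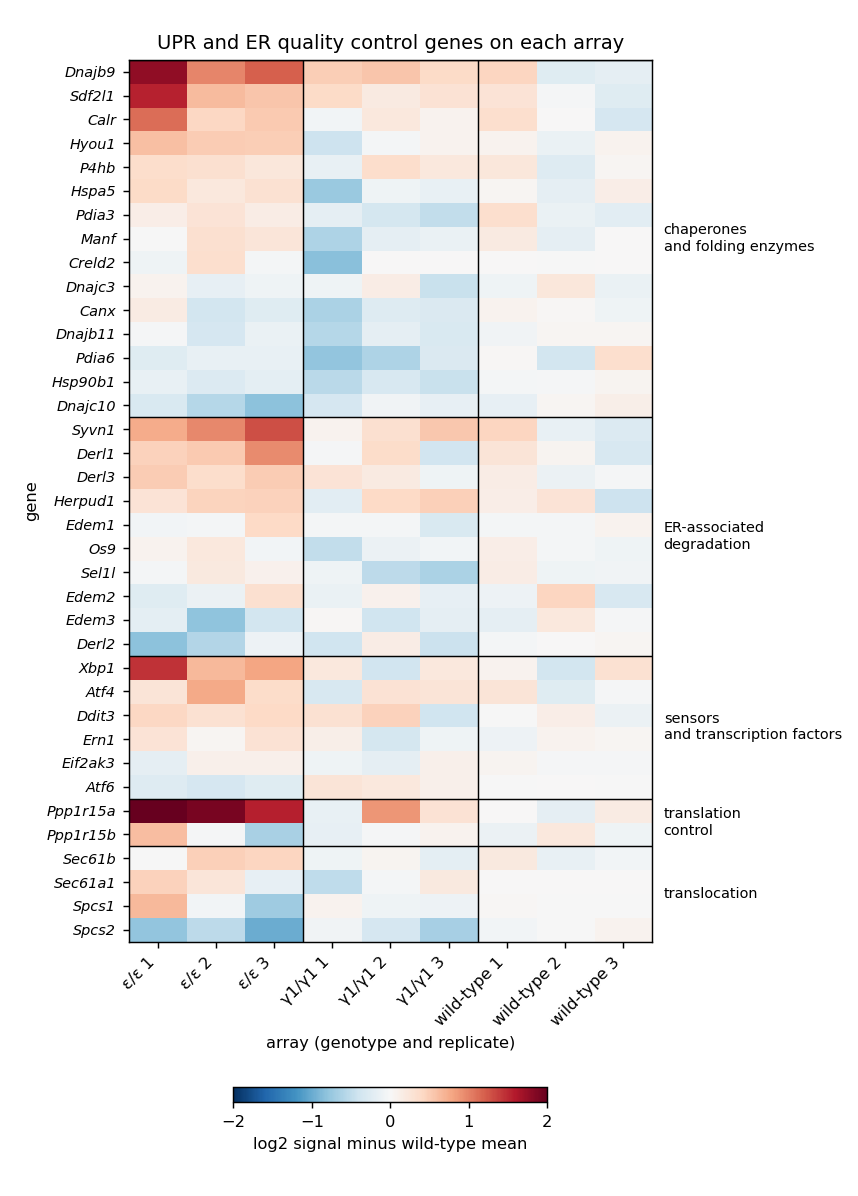
Log2 signal minus the mean of the wild-type arrays for the 37 tested genes (rows, grouped by role) on the 9 arrays (columns), from blue (lower) to red (higher), with values above 2 drawn at the end of the scale. Ppp1r15a, Dnajb9, Sdf2l1, Xbp1 and Syvn1 hold the strongest red on the ε/ε arrays, and many chaperones are blue on γ1/γ1 array 1.

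Against wild-type, 3 of the 37 genes rose in ε/ε cells (8.11%) and 1 fell (2.70%). Over all 12170 genes 2.33% rose and 4.02% fell at the same threshold, an adjusted p under 0.05. The genes that rose were Ppp1r15a, the eIF2 phosphatase subunit GADD34, Dnajb9, an ER-resident co-chaperone of BiP, and Syvn1, the ubiquitin ligase HRD1. The gene that fell was Spcs2, a subunit of signal peptidase. The median log2 difference of the 37 genes was 0.18, against -0.013 over all genes tested, and it was positive in 24 of them (64.9%, against 48.3%). At an unadjusted p under 0.05 stood 14 of the 37 (37.8%), against 24.8% of all genes tested. The split of the calls moved with the scaling. After quantile normalization 6 of the 37 were higher and 0 lower, with Hyou1, Calr and Xbp1 added and Spcs2 no longer past the test, and over all genes 410 were higher and 299 lower in place of 283 and 489. After centring of the arrays on their medians 4 were higher and 0 lower, with Xbp1 added and Spcs2 lost.

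On all 3 ε/ε arrays 10 of the 37 genes (27.0%) read higher than on any of the other 6 arrays, against 6.70% of all genes tested. They were Xbp1, Ppp1r15a, Hspa5, Hyou1, Dnajb9, Sdf2l1, Calr, Syvn1, Derl1 and Derl3. Derl3 was tested only because its 3 ε/ε values passed the filter, so its place among them was favoured by the filter. One gene, Atf6 (2.70%), read lower on all 3 ε/ε arrays than on the other 6, against 8.13% of all genes. Set against the wild-type arrays alone, ε/ε was separate and higher in 11 of the 37 genes and separate and lower in 6. Over all 12170 genes these counts were 1437 and 2021. As a share, the lower genes were thus about as frequent among the 37 as among all genes, and the higher genes more frequent.

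Within the sensors and transcription factors Xbp1 stood highest over wild-type in ε/ε cells without passing the test, and the kinases Ern1 and Eif2ak3 lay close to wild-type. No gene of the 6 passed in any of the 3 comparisons. Xbp1, the factor made active by IRE1 splicing, read 6.45, 5.65 and 5.79 on ε/ε arrays 1 to 3, 5.22, 4.62 and 5.21 on the γ1/γ1 arrays and 5.06, 4.63 and 5.31 on the wild-type arrays (log2 signal, as for all array values). Its lowest ε/ε value lay above the highest of the other 6. The mean was 5.96 ± 0.43 (SD, n = 3) in ε/ε against 5.0 ± 0.34 in wild-type, a difference of 0.96 (SE 0.26, adjusted p = 0.0559). Against wild-type, Xbp1 passed after quantile normalization (adjusted p = 0.0497) and after centring (adjusted p = 0.0459). It also passed with the filter at percentile 75 (adjusted p = 0.0382) and with a replicate block (adjusted p = 0.0292). At the same threshold it did not pass with the filter dropped, probe sets averaged, trended and robust eBayes or the 6 arrays compared. Nor did Xbp1 pass with any 1 array left out or on the 7 arrays with high Xist (adjusted p = 0.137). The spliced share of its mRNA was not analysed here.

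Atf6, the membrane-bound sensor that is cleaved to a transcription factor, read 6.88, 6.81 and 6.91 on the ε/ε arrays, 7.40, 7.36 and 7.26 on the γ1/γ1 arrays and 7.15, 7.16 and 7.14 on the wild-type arrays. The genotypes did not overlap, with ε/ε lowest and γ1/γ1 highest, although the steps were small. Its difference from wild-type was -0.28 (SE 0.12, adjusted p = 0.183) in ε/ε cells, and ε/ε lay -0.47 from γ1/γ1 (adjusted p = 0.0658). Atf4, the factor translated when eIF2 is phosphorylated, read 8.61, 9.12 and 8.74 in ε/ε, 8.04, 8.65 and 8.63 in γ1/γ1 and 8.63, 8.12 and 8.34 in wild-type. Its groups overlapped, and the ε/ε difference from wild-type was 0.46 (SE 0.22, adjusted p = 0.220). Ern1 and Eif2ak3 differed from wild-type by 0.20 and 0.0041, and Ddit3, the stress factor CHOP, by 0.38 (adjusted p = 0.297).

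In translation control the 2 phosphatase subunits parted. Ppp1r15a, the inducible one, read 8.45, 7.92 and 7.57 on the ε/ε arrays, 5.87, 6.90 and 6.31 on the γ1/γ1 arrays and 6.03, 5.84 and 6.19 on the wild-type arrays. The lowest ε/ε value, 7.57, lay above 6.90, the highest of the other 6. The difference from wild-type was 1.96 (SE 0.28, adjusted p = 0.00552), or 3.9-fold, the highest among the 37 genes. Ppp1r15b, the constitutive subunit CReP, read 6.25, 5.61 and 4.99 in ε/ε, 5.46, 5.62 and 5.71 in γ1/γ1 and 5.52, 5.84 and 5.55 in wild-type. Its ε/ε arrays straddled all the others and the difference was -0.02 (95% interval -0.62 to 0.58). Trib3, untested, lay between 3.07 and 4.07 on the 9 arrays, close to the array medians of 3.53 to 3.69.

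**Figure D3:**
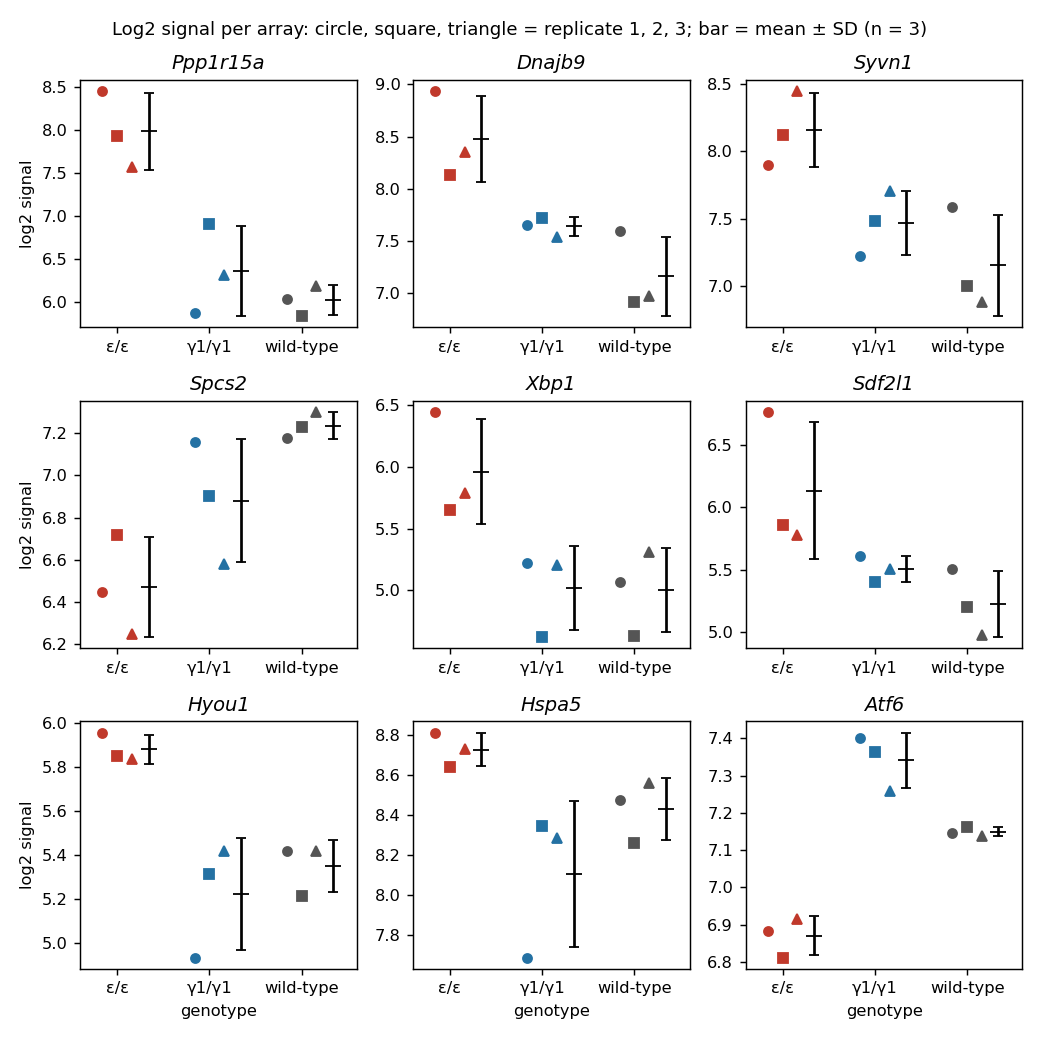
Log2 signal on each array (points) with the mean and SD of each genotype for 9 genes, 1 panel per gene. The ε/ε points of Ppp1r15a lie between 7.57 and 8.45, above all others, while those of Spcs2, between 6.25 and 6.72, lie below all wild-type points.

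Among the chaperones and folding enzymes, 1 of 15 rose in ε/ε cells and 0 fell. Dnajb9 read 8.94, 8.14 and 8.36 on the ε/ε arrays, 7.66, 7.72 and 7.54 on the γ1/γ1 arrays and 7.60, 6.91 and 6.98 on the wild-type arrays. Every ε/ε value was above every other value, and γ1/γ1 overlapped wild-type only through wild-type array 1. The difference from wild-type was 1.31 (SE 0.24, adjusted p = 0.0134), or 2.49-fold. It missed the threshold without wild-type array 2 (adjusted p = 0.0664) or 3 (adjusted p = 0.0613). Sdf2l1, a partner of BiP in the folding complex, read 6.76, 5.86 and 5.77 in ε/ε, 5.61, 5.40 and 5.51 in γ1/γ1 and 5.50, 5.20 and 4.98 in wild-type. Array 1 led the ε/ε group, but the others also lay above the remaining 6. The difference was 0.91 (SE 0.25, adjusted p = 0.0603).

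Hyou1, a large ER chaperone that exchanges the nucleotide of BiP, read 5.96, 5.85 and 5.84 in ε/ε, 4.93, 5.31 and 5.42 in γ1/γ1 and 5.42, 5.21 and 5.42 in wild-type. The ε/ε arrays were tight and separate, with a difference of 0.53 (SE 0.16, adjusted p = 0.0688). Calr, the lectin chaperone calreticulin, differed by 0.68 (adjusted p = 0.0913) and Hspa5, BiP itself, by 0.30 (95% interval -0.12 to 0.71). Both were above the other 6 arrays on all ε/ε arrays. P4hb, Pdia3, Manf and Creld2 lay between 0.07 and 0.30 above wild-type. Hsp90b1, Dnajb11, Dnajc3, Canx and Pdia6 lay below it, by -0.06 to -0.20, and Dnajc10, an ER reductase that aids degradation, by -0.56 (adjusted p = 0.0693). Hsp90b1 read 9.82 to 9.95 on the ε/ε arrays, below its 10.06 to 10.16 on the wild-type arrays. The chaperones were split: the median of the 15 was 0.18, with 9 differences positive and 6 negative.

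In ER-associated degradation 1 of 10 genes rose in ε/ε cells and 0 fell. Syvn1, the ligase at the core of the retrotranslocation complex, read 7.90, 8.12 and 8.45 on the ε/ε arrays, 7.22, 7.48 and 7.70 on the γ1/γ1 arrays and 7.58, 7.0 and 6.88 on the wild-type arrays. The ε/ε values were separate from both other groups. The difference from wild-type was 1.00 (SE 0.22, adjusted p = 0.0288), or 2.0-fold. This call was lost without ε/ε array 2 (adjusted p = 0.0558) or 3 (adjusted p = 0.0726) and without wild-type array 2 (adjusted p = 0.118) or 3 (adjusted p = 0.109). Sel1l, the adaptor that works with Syvn1, differed by 0.07 (95% interval -0.30 to 0.45).

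The derlins, membrane proteins of the same exit route, went separate ways. Derl1 read 6.23, 6.30 and 6.73 in ε/ε, 5.75, 6.15 and 5.40 in γ1/γ1 and 6.04, 5.83 and 5.46 in wild-type. Its difference from wild-type was 0.64 (SE 0.23, adjusted p = 0.120) and the ε/ε arrays were separate. Derl3 read 3.71, 3.57 and 3.71 in ε/ε, 3.48, 3.39 and 3.12 in γ1/γ1 and 3.36, 3.09 and 3.18 in wild-type, all close to the array median, with a difference of 0.45 (SE 0.15, adjusted p = 0.0894). Derl2 lay on the other side, at -0.50 (adjusted p = 0.179). Among the lectins and mannosidases that select glycoproteins for degradation, Edem3 differed by -0.46 (adjusted p = 0.176), and Edem1, Edem2 and Os9 by 0.10, -0.01 and 0.08. Herpud1, a scaffold of the complex, differed by 0.39 (adjusted p = 0.312).

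Of the 4 translocation genes, 1 fell. Spcs2 read 6.45, 6.72 and 6.25 on the ε/ε arrays, 7.16, 6.90 and 6.58 on the γ1/γ1 arrays and 7.18, 7.23 and 7.30 on the wild-type arrays. The γ1/γ1 values lay between the others and overlapped ε/ε. The difference from wild-type was -0.76 (SE 0.18, adjusted p = 0.0348). This call was lost when arrays were scaled otherwise, at -0.61 (adjusted p = 0.0840) after quantile normalization and -0.73 (adjusted p = 0.0555) after centring each array on its median. It was also lost without any 1 of ε/ε arrays 1 and 3, γ1/γ1 array 2 and wild-type arrays 1 to 3 (adjusted p 0.0556 to 0.115).

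Spcs1, its partner in signal peptidase, differed by -0.04, with ε/ε arrays spread from 6.23 to 7.61. Sec61a1, the channel of the translocon, read 6.48, 6.27 and 5.86 in ε/ε, 5.52, 5.99 and 6.22 in γ1/γ1 and 6.02 on all 3 wild-type arrays, and the difference was 0.18 (adjusted p = 0.633). Sec61b, a small subunit of the channel, read 8.23, 8.72 and 8.68 in ε/ε, 8.16, 8.30 and 8.05 in γ1/γ1 and 8.45, 8.09 and 8.20 in wild-type. Its difference was 0.30 (SE 0.17, adjusted p = 0.315).

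Follicular B cells with the γ1 allele showed 0 of 37 genes past the test against wild-type by limma, and 5 at an unadjusted p under 0.05 (13.5%, against 6.82% of all genes). Over all genes 0.0247% rose and 0.0164% fell, so calls were rare everywhere in this comparison. The median difference of the 37 genes was -0.10, against -0.018 over all genes, and 25 of the 37 were negative. The other 12 were positive (32.4%, against 46.6% of all genes). For 35 of the 37 genes the 95% interval lay within 1 of 0 on the log2 scale.

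Most chaperones lay on the lower side. Of the 15, 11 were negative with a median of -0.27, including Pdia6 at -0.56 (adjusted p = 0.649), Hsp90b1 at -0.44 (adjusted p = 0.521) and Canx at -0.40 (adjusted p = 0.718). Hsp90b1 read 9.55, 9.78 and 9.65 in γ1/γ1 and 10.06, 10.07 and 10.16 in wild-type, without overlap. The median depended on γ1/γ1 array 1, on which Hspa5, Hsp90b1, Hyou1, Dnajb11, Manf, Creld2, Canx and Pdia6 had their lowest values. Without that array the chaperone median was -0.12, with 9 of 15 negative. Dnajb9, Syvn1, Sdf2l1 and Ppp1r15a lay on the positive side, at 0.48, 0.31, 0.28 and 0.34, with adjusted p from 0.735 to 0.856 in limma.

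The direct comparison of ε/ε with γ1/γ1 had 1 gene higher and 0 lower among the 37 (over all genes 1.02% higher and 1.64% lower). Ppp1r15a rose by 1.62 (SE 0.28, adjusted p = 0.0172), or 3.08-fold. The call was lost without ε/ε array 1 (1.39, adjusted p = 0.05005), without γ1/γ1 array 1 (1.37, adjusted p = 0.0588) and without γ1/γ1 array 3 (1.59, adjusted p = 0.0671). Differences were positive in 31 of the 37 genes (83.8%, against 50% of all genes), with a median of 0.30 against -2.8e-05. Without γ1/γ1 array 1 the median was 0.18. Next in line by adjusted p were Hyou1 at 0.66 (0.0533), Atf6 at -0.47 (0.0658), Xbp1 at 0.95 (0.0825) and Dnajb9 at 0.84 (0.0886), none of which passed.

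Since ε/ε and γ1/γ1 were each set against the same wild-type arrays, their differences are given side by side only. The F test for any difference among the genotypes passed for 2 of the 37 genes (5.41%), Dnajb9 (adjusted p = 0.0301) and Ppp1r15a (adjusted p = 0.0105), against 4.11% of all genes. By mean, ε/ε was highest of the 3 genotypes in 24 of the 37 genes (64.9%, against 38.6% of all genes) and γ1/γ1 was lowest in 20 (54.1%, against 29.0%).

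**Figure D4:**
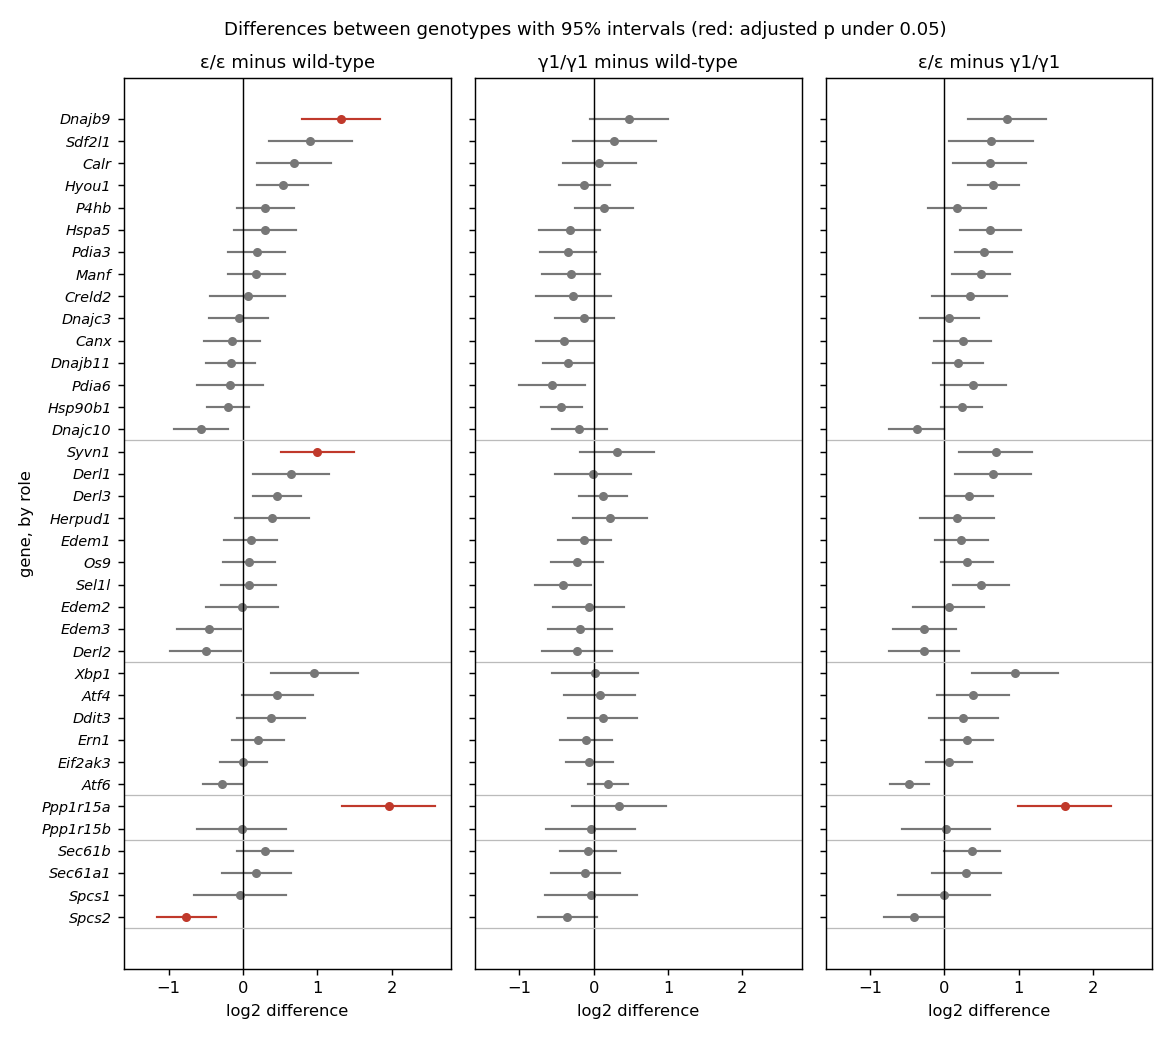
Log2 difference (point) and its 95% interval (line) for each of the 37 genes, by role, in the 3 comparisons, with genes past an adjusted p of 0.05 in red. Red marks Ppp1r15a, Dnajb9, Syvn1 and Spcs2 for ε/ε against wild-type, 0 genes for γ1/γ1 against wild-type and Ppp1r15a for ε/ε against γ1/γ1.

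Other genes of the same pathways were called in ε/ε cells about as often as genes at large. Of 160 further genes listed, 135 were tested, and 3 rose (2.22%, against 2.33% of all genes) and 6 fell (4.44%, against 4.02%) relative to wild-type, with a median difference of -0.059. Their difference from the 37 genes was not tested. Among 25 further ER folding genes 0 rose and 1 fell, Tmx3, a transmembrane oxidoreductase, at -0.95 (SE 0.14, adjusted p = 0.00610). Among 27 further degradation genes Ube2j1, an ER-anchored ubiquitin-conjugating enzyme, rose by 0.90 (adjusted p = 0.0438) and Ngly1, which strips glycans from misfolded proteins, fell by 1.08 (adjusted p = 0.0123). Among 30 further targeting and translocation genes Stt3a, a catalytic subunit of oligosaccharyltransferase, fell by 0.77 (adjusted p = 0.0134). Spcs3, a signal peptidase subunit like Spcs2, fell by 0.68 (adjusted p = 0.0211).

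The lists closest to the signalling arms had 1 or 2 calls each. Of 22 targets of ATF4 and the integrated stress response, 1 rose, the transcription factor gene Cebpb, by 1.23 (adjusted p = 0.0156). A list of 13 tested genes held eIF2 kinases, subunits of eIF2 and eIF2B, and catalytic subunits of protein phosphatase 1. Its 1 call was Ppp1cb, of the phosphatase subunits, which fell by 0.85 (adjusted p = 0.0444). Of 18 partners of the sensors, Tmbim6, an inhibitor of IRE1, rose by 0.91 (adjusted p = 0.0274) and Mbtps2, the protease that completes ATF6 cleavage, fell by 1.07 (adjusted p = 0.0104). Between ε/ε and γ1/γ1, Cebpb rose by 1.32 (adjusted p = 0.0177), and Tmx3 (-0.79, adjusted p = 0.0189), Ost4 (-0.86, adjusted p = 0.0329) and Mbtps2 (-0.92, adjusted p = 0.0300) fell. Without ε/ε array 1, Tmx3 stayed past the threshold (-0.81, adjusted p = 0.0439), whereas Cebpb (1.14, adjusted p = 0.0517), Ost4 (-0.86, adjusted p = 0.0714) and Mbtps2 (-0.78, adjusted p = 0.0712) did not. Between γ1/γ1 and wild-type 0 of the 135 passed in limma, and 14 stood at an unadjusted p under 0.05 (10.4%, against 6.82% of all genes).

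The sorted cells carried B cell markers throughout, with 9 of 9 measured markers above the array median on every array, and T cell, neutrophil and erythroid lists had 1 gene tested each, NK and dendritic cell lists 4 each, and 0 of these passed. The B cell markers read higher in ε/ε than in wild-type: the summed log2 signal of the 9 was 84.0 to 85.2 on the ε/ε arrays, 82.0 to 84.1 on the γ1/γ1 arrays and 78.9 to 83.3 on the wild-type arrays, lowest on wild-type array 2. Their median difference was 0.25, above the 0.18 of the 37 genes, and 0 of 9 passed in limma, with Cd79a, a chain of the B cell receptor complex, at 1.07 (adjusted p = 0.0568). The sum of 7 dendritic cell markers was 26.3 to 27.3 on the ε/ε arrays, 25.6 to 27.1 on the γ1/γ1 arrays and 24.7 to 25.0 on the wild-type arrays. Macrophage markers were uneven: the summed log2 signal of 16 genes was 64.1 to 105 on the ε/ε arrays, 58.9 to 61.1 on the γ1/γ1 arrays and 57.8 to 59.7 on the wild-type arrays. Their mean was 6.56, 4.53 and 4.01 on ε/ε arrays 1 to 3. Of the 16, 12 were tested and 0 passed in limma between ε/ε and wild-type, with a median difference of 1.21. Nearest the threshold were C1qb at 2.39 (adjusted p = 0.0505), C1qa at 1.22 (adjusted p = 0.0509) and Hmox1 at 2.91 (adjusted p = 0.0575), and only Marco was negative, at -0.20. No macrophage marker was below the array median on all 9 arrays. Csf1r, Mrc1 and Slc40a1 were above it on ε/ε arrays 1 and 2 only, and C1qc on ε/ε array 1 only. The sum over 11 plasma cell markers overlapped between the genotypes, at 58.7 to 60.9 on all arrays, and Jchain was below the median on every array. Of 8 tested genes 1 rose in ε/ε cells, Pou2af1, a coactivator also found in B cells at large, by 1.62 (adjusted p = 0.00976). Pou2af1 separated the genotypes, at 9.48 to 10.01 in ε/ε, 9.05 to 9.38 in γ1/γ1 and 7.44 to 8.58 in wild-type. Irf4 read higher on all 3 ε/ε arrays than on the other 6, without passing against wild-type (0.39, adjusted p = 0.262). Slamf7 read lower on all 3 ε/ε arrays than on the wild-type arrays, also without passing (-0.29, adjusted p = 0.242). Xist was low on ε/ε array 1 (5.25) and γ1/γ1 array 1 (4.53), against 10.37 to 10.79 on the other 7. The Y-linked Eif2s3y read 7.40 on ε/ε array 1 and 7.99 on γ1/γ1 array 1. It read 5.40 on ε/ε array 2, where Xist was high, and 2.75 to 3.64 on the rest, so the 7 arrays were not alike in it.

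Ppp1r15a, Dnajb9, Sdf2l1, Xbp1 and Calr were highest on ε/ε array 1, the array with the highest macrophage markers, and Syvn1 was lowest there within its group. Without that array Ppp1r15a still rose against wild-type, by 1.73 (adjusted p = 0.0170), as did Dnajb9 by 1.08 (adjusted p = 0.0307) and Syvn1 by 1.13 (adjusted p = 0.0370). Dnajc10 then fell, at -0.69 (adjusted p = 0.0495), and Spcs2 was at -0.75 (adjusted p = 0.0783). Xbp1 was at 0.72 (adjusted p = 0.135), Sdf2l1 at 0.59 (adjusted p = 0.0969) and Calr at 0.47 (adjusted p = 0.218). The summed macrophage markers on ε/ε arrays 2 and 3 were 72.5 and 64.1, still above the 57.8 to 61.1 of the other 6 arrays. Leaving out ε/ε array 1 thus did not remove all of that signal. Both remaining ε/ε arrays were above the other 6 in 13 of the 37 genes (35.1%, against 11.0% of all genes), including Manf, Atf4 and Sec61b, a comparison of fewer arrays. Of the further genes, Ube2j1 (0.74, adjusted p = 0.109), Tmbim6 (0.85, adjusted p = 0.0720) and Ppp1cb (-0.93, adjusted p = 0.0671) missed the threshold against wild-type, while Cebpb was at 1.05 (adjusted p = 0.0422).

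On the 7 arrays with high Xist, Ppp1r15a (adjusted p = 0.0126), Dnajb9 (adjusted p = 0.0422) and Syvn1 (adjusted p = 0.0422) rose in ε/ε against wild-type, and Dnajc10 fell (adjusted p = 0.0489). For this comparison the ε/ε and wild-type arrays are those of the fit without ε/ε array 1. The differences are therefore the same, only the estimate of spread changed, and this is not a separate check. Between ε/ε and γ1/γ1 0 genes passed there in limma, with Ppp1r15a at 1.14 (adjusted p = 0.0866). What macrophage RNA or the low Xist arrays contributed to the values on all 9 arrays was not tested beyond these fits, and the part of the B cell and dendritic cell markers in them was not tested.

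**Figure D5:**
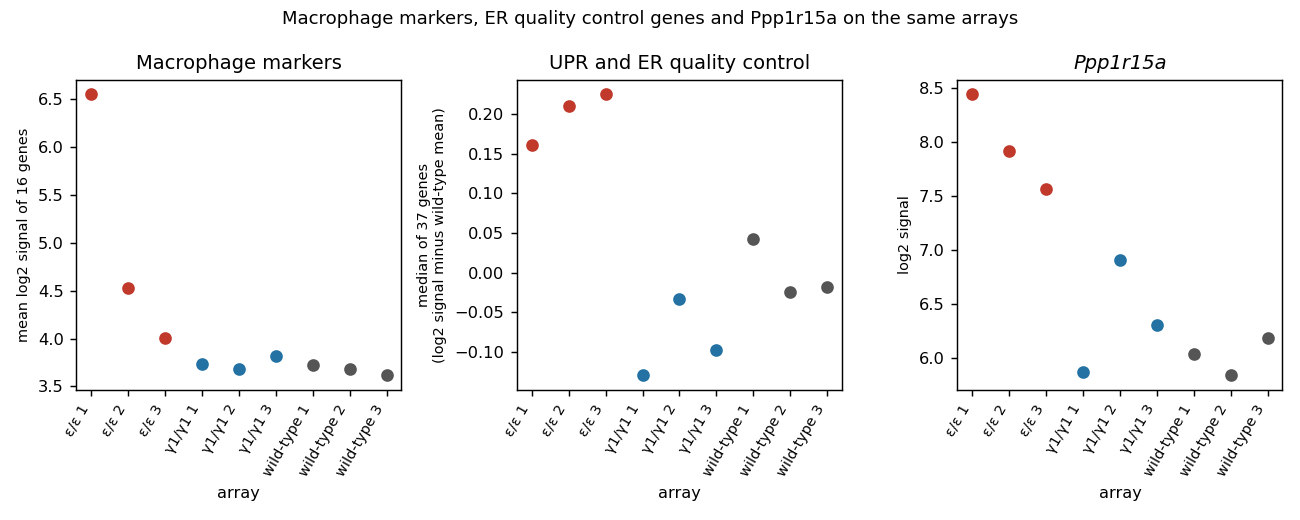
Mean log2 signal of 16 macrophage markers (left), median of 37 ER quality control genes as log2 signal minus the wild-type mean (middle) and log2 signal of Ppp1r15a (right) on each of the 9 arrays. On ε/ε arrays 1 to 3 the markers are at 6.56, 4.53 and 4.01 and Ppp1r15a is at 8.45, 7.92 and 7.57. The median of the 37 genes is 0.16, 0.21 and 0.23 there.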

How the data were processed

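Transcript levels of follicular B cells were measured on 9 single-colour arrays, 3 per genotype. Per the labels' protocols, 54 to 360 ng of TRIzol-extracted RNA entered a Nugen PicoWTA amplification, after which 3 µg of cDNA was taken through the exon module and 2.5 µg into biotin labelling. The values analysed are the authors' deposited log2 signals for 41345 probe sets, a scale inferred from their range. How probes were background-corrected, normalized and combined is not given in the sources used here, and the submitters' processing notes name R 3.3.1. Exact ties between arrays occurred in 45.9% of probe sets and in 14 of the 38 genes with a value, so some spreads may be too small.

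Gene symbols come from the array platform's annotation, in which 23521 carry 1 symbol, 1814 several and 16010 none here. This gave 22180 genes. Differences came from limma 3.58.1 (R 4.3.3) in a single fit of the 9 arrays by genotype, with 6 residual degrees of freedom, eBayes moderation and Benjamini-Hochberg adjustment over the 12170 genes tested. Every adjusted p and 95% interval comes from limma. The script was tested on simulated data. Same-numbered arrays did not deviate together (r from -0.091 to 0.156 over genes), so replicate numbers were not treated as pairs. Figures used matplotlib 3.10.9 under Python 3.11.15.

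The genes, lists and tests were chosen with earlier results of these data known. Given on every array are genes past the threshold in any comparison, and the smallest F test p-values until each role had 3 genes. Other genes are given by their differences. Of each further list, up to 4 genes past the threshold are named. Alternatives were quantile normalization, centring, the filter dropped or set at percentile 75, probe sets averaged per gene, trended and robust eBayes, 6 arrays, a replicate block, the 7 arrays with high Xist, an adjusted p under 0.1, and each array left out. Role medians, further genes and the separation of ε/ε arrays were also computed without ε/ε or γ1/γ1 array 1, which was decided after seeing the data.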

Additional observations from a re-analysis of the deposited data

How the results depend on the processing

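Against wild-type, the count of 4 genes past the threshold in ε/ε cells became 7 with the filter at percentile 75, 2 with the 6 arrays compared and 10 at an adjusted p under 0.1, and ran from 1 to 5 with 1 array left out. The split of 3 higher and 1 lower became 6 and 0 after quantile normalization and 4 and 0 after centring. The count was 1 (Ppp1r15a) without wild-type array 2 or 3, and 2 without ε/ε array 3. Over 18 alternatives each, Ppp1r15a passed in 18 (adjusted p 0.00281 to 0.0340), Dnajb9 in 15 (up to 0.0664), Syvn1 in 12 (up to 0.118) and Spcs2 in 9 (up to 0.115). These are not separate checks. The filters, trended and robust eBayes, the replicate block, the 6 arrays and omission of a γ1/γ1 array left these differences unchanged. The 7 arrays with high Xist gave the same differences as the fit without ε/ε array 1. The median of 0.18 became 0.25 after quantile normalization, 0.10 with the filter at percentile 75 and 0.080 with the mean of probe sets, and ran from 0.11 to 0.20 with 1 array left out. Over all genes the split of 283 higher and 489 lower became 410 and 299 after quantile normalization and 324 and 386 after centring. Between γ1/γ1 and wild-type 0 genes passed under every alternative in limma, and the median of -0.10 became -0.033 after quantile normalization. Between ε/ε and γ1/γ1 the count of 1 became 2 with quantile normalization, centring, the filter at percentile 75 or a replicate block, 0 on the 7 arrays with high Xist or the 6 compared, and 5 at an adjusted p under 0.1. It ran from 0 to 1 with 1 array left out. Ppp1r15a passed there in 13 of 18 alternatives. The median of 0.30 became 0.36 after centring and ran from 0.18 to 0.35 with 1 array left out. The F test count of 2 became 4 with quantile normalization or the filter at percentile 75, 1 on the 7 arrays, 7 at an adjusted p under 0.1, and 1 to 3 with 1 array left out. With the replicate block, Syvn1 (adjusted p = 0.0519) left and Xbp1 (0.0292) and Sdf2l1 (0.0363) joined the calls against wild-type, and Xbp1 (0.0469) joined those against γ1/γ1. The cause of these shifts was not tested. Of 795 values of single genes under the alternatives, 32 changed sign, all in genes that passed on neither side. Without ε/ε array 1 the translocation median went from 0.069 to -0.17 against wild-type and from 0.15 to -0.097 against γ1/γ1.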

Other observations

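Several genes have more than 1 probe set, and these did not always move alike. For Sec61b, ε/ε minus wild-type on the log2 scale came to 0.30 on the brighter probe set and -0.49 on the dimmer one, which lies near the array median. Edem1 differed by 0.10 on its brighter and -0.54 on its dimmer probe set. For Spcs2 both probe sets were lower in ε/ε, at -0.76 and -0.63, and the further Derl2 probe set was at -0.70 beside -0.50. The dimmer Spcs2 probe set was 0.18 higher in γ1/γ1 than in wild-type, where the brighter one was at -0.36. Several values were shared exactly between arrays, as in Sec61a1, whose 3 wild-type arrays are identical, in Creld2, where wild-type arrays 1 and 3 share a value with γ1/γ1 array 2, and in Edem1, with 5 of its 9 values in a tie.

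Gene by gene, replicates of the 37 genes spread about as widely as those of all genes tested. The median SD was 0.24 against 0.22 in ε/ε, 0.24 against 0.20 in γ1/γ1 and 0.16 against 0.17 in wild-type.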
